A study of Mus musculus with 4 samples.

Results

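This account covers 9 genes whose proteins bind unstable mRNAs and set how fast they are degraded: Zfp36, Zfp36l1, Zfp36l2, Zc3h12a, Rc3h1, Khsrp, Elavl1, Cnot1 and Cnot7. They were picked by symbol from a table of 23847 rows under 23359 symbols. Each stands on a single row, and all 9 passed the filter on low values (2 or more libraries at 1 FPKM or above), as did 11643 rows in all. The libraries hold bulk RNA of the whole epidermis of back skin from Irx5KO mice (Irx5-/-, 2 libraries) and WT mice (Irx5+/+, 2 libraries), all at postnatal day 20. In both genotypes the tissue was dissociated with trypsin and by mechanical separation before RNA was taken. The design text counts 2 mice per genotype. The labels describe neither the allele nor litters, and give neither sex nor preparation days.

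Many short-lived mRNAs carry AU-rich elements in the 3′ UTR, the untranslated stretch after the stop codon. Proteins of the Zfp36 family bind these elements through paired zinc fingers and recruit the CCR4-NOT complex, which shortens the poly(A) tail and so starts decay. Regnase-1 (encoded by Zc3h12a) and roquin-1 (encoded by Rc3h1) recognise stem-loops in the mRNAs of cytokines and immune regulators, KSRP (Khsrp) promotes decay of AU-rich mRNAs, and HuR (Elavl1) binds the same class of element and usually protects the mRNA.

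Levels are given in FPKM, a read count scaled for transcript length and library size, for replicates 1 and 2 of each genotype in that order. Each change is the Irx5KO mean less the WT mean of log2(FPKM + 1), a scale that understates changes of genes at low level. Adjusted p-values are from limma over all 11643 rows, with 0.05 as the threshold. "Rose" and "fell" are used of genes past that threshold.

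The labelled tissue was checked against 14 keratinocyte markers, which summed to 25630 and 27061 FPKM in Irx5KO libraries and to 34339 and 28890 FPKM in WT libraries. Of these markers, the basal keratin gene Krt14 fell (1520 and 1576 FPKM in Irx5KO, 4807 and 5211 FPKM in WT, adjusted p = 0.00439), Trp63, a transcription factor of basal cells, rose (191 and 144 FPKM in Irx5KO, 85.0 and 86.4 FPKM in WT, adjusted p = 0.00871), and 12 did not pass. Irx5 itself stood at 10.01 and 10.08 FPKM in Irx5KO libraries and at 17.4 and 16.4 FPKM in WT libraries (log2 change -0.70, adjusted p = 0.0117). That call ended in 4 of the 14 alternatives, at an adjusted p of 0.103 with Irx5KO replicate 1 left out, 0.0899 with Irx5KO replicate 2 left out, 0.0577 in TPM and 0.0715 with no filter on low values. The RNA of the whole gene does not show which part was removed. Xist, transcribed from the inactive X chromosome, was at 0.0606 and 0.0459 FPKM in Irx5KO and at 36.6 and 33.9 FPKM in WT, and the Y-linked gene Eif2s3y at 70.9 and 75.7 FPKM in Irx5KO and at 0.0350 and 0.0422 FPKM in WT. Both Irx5KO libraries thus had a male pattern and both WT libraries a female pattern, so that sex and genotype cannot be told apart in any comparison here.

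The AU-rich sites of the regulators' own mRNAs are shown first, since Zfp36 family mRNAs carry the element that their proteins bind. The nonamer TTATTTATT was searched on the sense strand of the longest annotated 3′ UTR of each gene, and overlapping matches were counted. It was present in 5 of the 9 regulators, against 896 of the 11155 tested symbols with an annotated 3′ UTR (8.03%). The first match of each is printed 5′ to 3′ as DNA (T for U), with the nonamer in capitals.
Zfp36: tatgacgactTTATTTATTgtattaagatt
Zfp36l1: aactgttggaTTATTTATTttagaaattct
Zfp36l2: actatttaacTTATTTATTatcttgtgaaa
Rc3h1: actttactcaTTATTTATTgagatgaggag
Elavl1: gtcatgaaaaTTATTTATTtatttatttat

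These sites lie in mm10 at chr7:28376950-28376979 (Zfp36, minus strand), chr12:80108166-80108195 (Zfp36l1, minus), chr17:84184913-84184942 (Zfp36l2, minus), chr1:160970043-160970072 (Rc3h1, plus) and chr8:4285787-4285816 (Elavl1, minus). The 3 Zfp36 family mRNAs each held 1 nonamer, in 3′ UTRs of 774, 1835 and 1822 bases for Zfp36, Zfp36l1 and Zfp36l2. Rc3h1 held 1 in a 3′ UTR of 7181 bases. Elavl1 held 8 overlapping matches in a 3′ UTR of 4218 bases, the tandem repeat visible in its sequence. The 3′ UTRs of Zc3h12a, Khsrp, Cnot1 and Cnot7 held none. The share of regulators with a nonamer was set beside that of all tested symbols without allowance for 3′ UTR length. The regulators were also chosen for their part in mRNA decay.

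Of the 9 regulators, 3 fell in Irx5KO (Zfp36, Zfp36l1 and Zc3h12a), none rose, and 6 did not pass the test. Over all rows tested, 9.22% fell and 26.9% rose, so that 36.1% were past the threshold in either direction. The libraries of the genotypes did not overlap for 8 of the 9 regulators, 4 with Irx5KO below WT (Zfp36, Zfp36l1, Zc3h12a and Rc3h1) and 4 with Irx5KO above WT (Zfp36l2, Khsrp, Cnot1 and Cnot7). Over all rows this held for 72.3%, with 18.0% below and 54.3% above. A permutation of 2 against 2 libraries cannot give an exact p under 0.333, and the adjusted p-values therefore rest on the model.

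**Figure D1:**
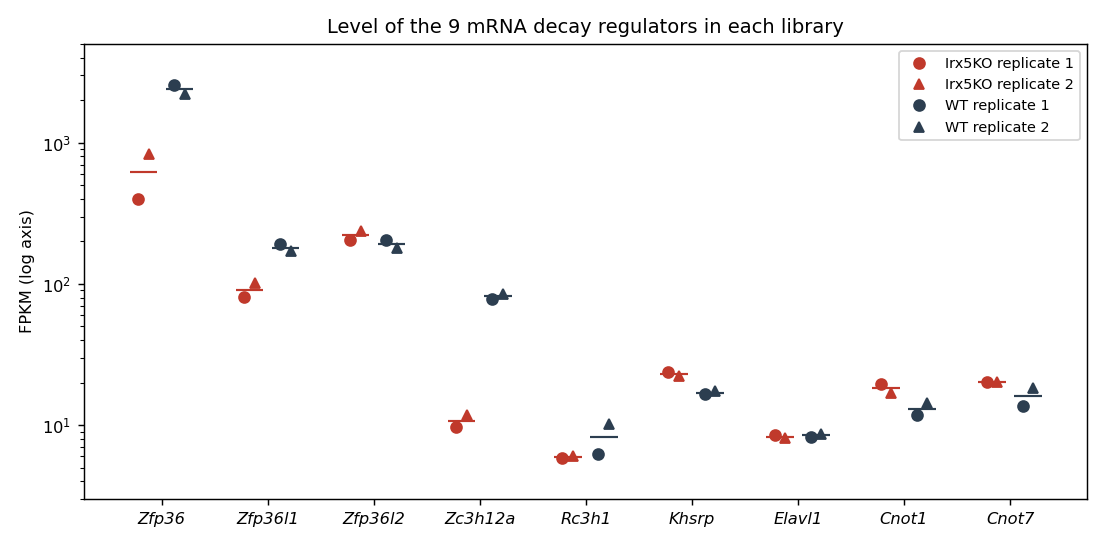
FPKM (log axis) of the 9 regulators, with Irx5KO libraries in red left of WT libraries in dark blue, circles for replicate 1, triangles for replicate 2 and a line at the mean of each genotype. Zfp36, Zfp36l1 and Zc3h12a lie lower in both Irx5KO libraries, and Elavl1 overlaps between the genotypes.

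Zfp36 encodes tristetraprolin, the founding member of the family, whose own mRNA is induced rapidly by growth factors and stress and is itself short-lived. It was the most abundant of the 9 regulators in every library, at 401 and 838 FPKM in Irx5KO and at 2580 and 2207 FPKM in WT. Both Irx5KO libraries lay below both WT libraries, but they differed 2.09-fold from each other, against 1.17-fold within WT. The Irx5KO mean of 619 ± 309 FPKM was 25.9% of the WT mean of 2393 ± 264 FPKM (SD, n = 2 each). The log2 change was -2.04 (SE 0.366, adjusted p = 0.00387). It remained past the threshold with each library left out in turn, at -1.51 to -2.57. The gene lies at chr7:28376784-28380253 (mm10, minus strand), and the antisense gene Gm44710 covers 1274 bases of it.

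Zfp36l1 encodes a paralogue with the same RNA-binding domain. It stood at 81.0 and 101 FPKM in Irx5KO and at 190 and 170 FPKM in WT, with no overlap. The Irx5KO mean was 50.6% of the WT mean (log2 change -0.98, SE 0.201, adjusted p = 0.00704). The call ended without Irx5KO replicate 1 (log2 change -0.82, adjusted p = 0.0806). The gene lies at chr12:80107754-80113013 (mm10, minus strand), and the noncoding gene Gm26669 covers most of it on the opposite strand. Strand-specific counting is not stated, so reads of such a partner cannot be told apart.

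Zfp36l2, the third paralogue, did not follow the others. It was at 205 and 238 FPKM in Irx5KO and at 204 and 180 FPKM in WT. Irx5KO replicate 1 and WT replicate 1 were nearly equal. The log2 change of 0.20 (SE 0.205, adjusted p = 0.459) did not pass, and lay close to the median change of all rows, 0.26. Its sign depended on the scaling of the libraries, at -0.10 with the median of ratios (adjusted p = 0.738) and 0.64 with quantile normalization (adjusted p = 0.0182).

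Ratios of FPKM within a library are not altered by a single factor per library, as the median of ratios or TPM applies, though quantile normalization does alter them. They show that the family members changed unequally. The ratio of Zfp36 to Zfp36l2 was 1.96 and 3.52 in Irx5KO libraries and 12.6 and 12.3 in WT libraries. The ratio of Zfp36l1 to Zfp36l2 was 0.396 and 0.426 in Irx5KO libraries and 0.930 and 0.945 in WT libraries. Neither ratio overlapped between the genotypes.

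Summed over the 3 paralogues, which FPKM allows since it is per length, the family stood at 686 and 1177 FPKM in Irx5KO and at 2974 and 2556 FPKM in WT. Zfp36l2 made up 29.8% and 20.2% of that sum in Irx5KO libraries and 6.87% and 7.03% in WT libraries. Zfp36 made up 58.4% and 71.2% in Irx5KO and 86.7% and 86.3% in WT. Zfp36 RNA was thus the largest share in every library, and the other family members held a larger share in both Irx5KO libraries.

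**Figure D2:**
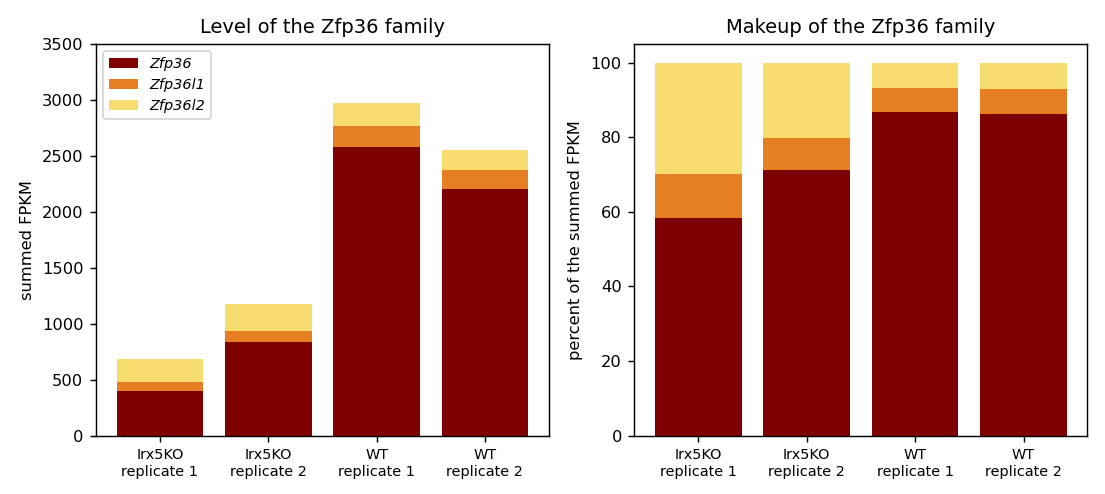
Summed FPKM of Zfp36, Zfp36l1 and Zfp36l2 (left) and the percent of that sum held by each (right) in the 2 Irx5KO libraries and the 2 WT libraries, each bar a library. The sums reach 686 and 1177 FPKM in Irx5KO and 2974 and 2556 FPKM in WT, and the Zfp36l2 share is larger in Irx5KO.

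Zc3h12a had the largest change of the 9. It encodes regnase-1, an endoribonuclease that cleaves mRNAs of interleukins and other inflammatory genes. It stood at 9.64 and 11.8 FPKM in Irx5KO and at 78.3 and 85.3 FPKM in WT, with close replicates in both genotypes. The Irx5KO mean was 13.1% of the WT mean, and single pairs of libraries ranged from 11.3% to 15.1% (log2 change -2.82, SE 0.177, adjusted p = 2.38e-05). It stayed past the threshold with each library left out, at -2.69 to -2.96. The gene lies at chr4:125118423-125127840 (mm10, minus strand).

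Rc3h1, for roquin-1, was at 5.85 and 6.08 FPKM in Irx5KO and at 6.27 and 10.2 FPKM in WT. The WT replicates differed 1.63-fold, and the change did not pass (log2 change -0.37, SE 0.220, adjusted p = 0.209). It passed without WT replicate 1 (-0.68, adjusted p = 0.0132) and was -0.06 without WT replicate 2, so its size rested on which WT library was used. The ratio of Zc3h12a to Rc3h1 was 1.65 and 1.94 in Irx5KO libraries and 12.5 and 8.37 in WT libraries, again without overlap.

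Khsrp encodes a KH-domain protein that binds AU-rich elements and recruits decay enzymes. It stood at 23.6 and 22.4 FPKM in Irx5KO and at 16.6 and 17.4 FPKM in WT. The genotypes did not overlap, but the log2 change of 0.42 (SE 0.163, adjusted p = 0.0745) did not pass. Relative to the median of all rows the change was 0.16.

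Elavl1, for HuR, had the smallest change of the 9 as deposited. It was at 8.46 and 8.13 FPKM in Irx5KO and at 8.27 and 8.65 FPKM in WT, which overlap. The log2 change was -0.03 with an SE of 0.163 (adjusted p = 0.916), and turned positive in TPM (0.21, adjusted p = 0.445). As a ratio to Elavl1 in the same library, Zfp36 stood at 47.4 and 103 in Irx5KO and at 312 and 255 in WT.

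The CCR4-NOT subunits in the set were slightly higher in Irx5KO without passing. Cnot1, the scaffold on which the complex is built, was at 19.6 and 16.9 FPKM in Irx5KO and at 11.8 and 14.3 FPKM in WT (log2 change 0.46, SE 0.178, adjusted p = 0.0723). Cnot7, a catalytic deadenylase subunit, was at 20.1 and 20.3 FPKM in Irx5KO and at 13.7 and 18.3 FPKM in WT (log2 change 0.33, SE 0.185, adjusted p = 0.192). Relative to the median of all rows these changes were 0.20 and 0.07. Both passed without WT replicate 2, with adjusted p = 0.0387 for Cnot1 and 0.0396 for Cnot7. Cnot7 shares part of its position with Vps37a and Zdhhc2 on the opposite strand, which stood at 7.19 to 7.86 and at 0.910 to 1.64 FPKM in Irx5KO and at 6.26 to 7.46 and at 0.995 to 1.02 FPKM in WT.

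**Figure D3:**
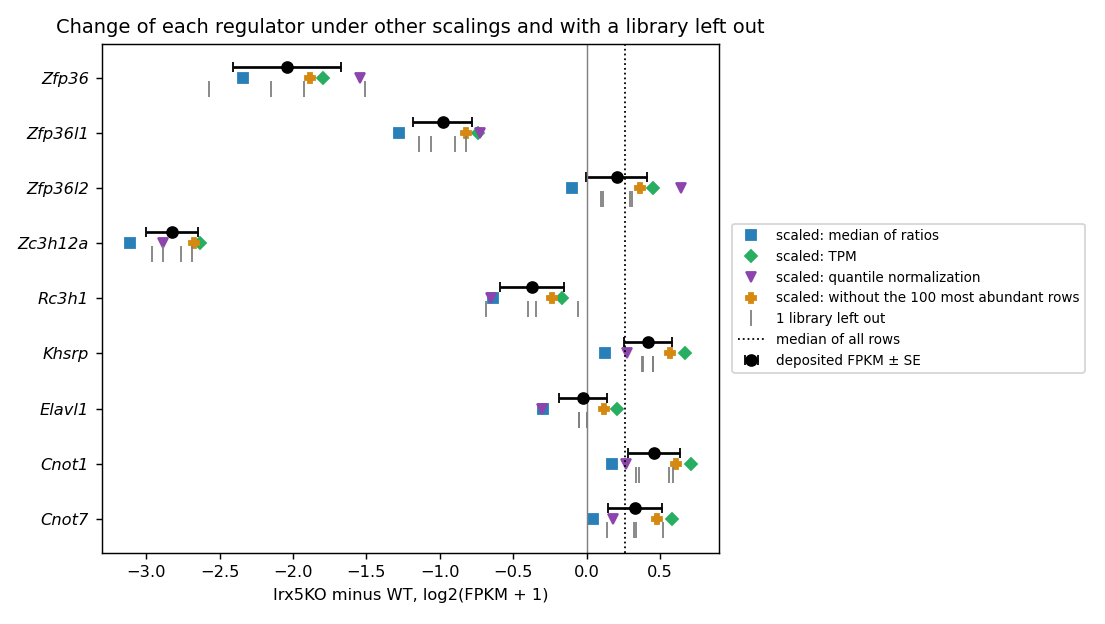
Change of each regulator (Irx5KO minus WT, log2(FPKM + 1)) from the deposited values with its SE (black), under 4 other scalings of the libraries (coloured) and with 1 library left out in turn (grey ticks). The solid line marks 0 and the dotted line the median of all rows, 0.26. Zc3h12a, Zfp36 and Zfp36l1 stay below 0 throughout, while Zfp36l2 and Elavl1 fall on both sides.

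The scaling of the libraries bears on the small changes. The median change of all rows was 0.26 as deposited, 0.00 with the median of ratios, 0.08 with quantile normalization and 0.50 in TPM. Relative to that median, the change lay between -1.63 and -2.82 for Zfp36, between -0.81 and -1.39 for Zfp36l1 and between -2.83 and -3.22 for Zc3h12a over all alternatives tried. In TPM 4 regulators rose (Zfp36l2, Khsrp, Cnot1 and Cnot7) and the same 3 fell.

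The order of levels differed between genotypes mainly through Zc3h12a, which stood below Khsrp, Cnot7 and Cnot1 in Irx5KO and above them in WT. In Irx5KO the order by mean was Zfp36, Zfp36l2, Zfp36l1, Khsrp, Cnot7, Cnot1, Zc3h12a, Elavl1 and Rc3h1, and no neighbours overlapped. In WT it was Zfp36, Zfp36l2, Zfp36l1, Zc3h12a, Khsrp, Cnot7, Cnot1, Elavl1 and Rc3h1. There 4 of the 8 neighbouring pairs overlapped, namely Zfp36l2 with Zfp36l1, Khsrp with Cnot7, Cnot7 with Cnot1 and Elavl1 with Rc3h1.

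Promoter sequence was matched for 6 of the 9 regulators in the RefSeq table (build GRCm38.p6), covering the 250 bases before the start site. The 3 genes that fell were chosen for print by that outcome, so their motifs are a description only. Motifs were searched on both strands. They were TGANTCA for AP-1, GGGCGG for SP1 and the TATAAA box. The core CCGGAA of E26 factors, the cAMP response element TGACGTCA, the CArG box of serum response factor and an NF-kB site were searched as well. The Zfp36 window held a CArG box, found in 1.47% of 32851 promoters, which overlaps a reverse GGGCGG by 1 base, and a CCGGAA further upstream. The 30 bases around the CArG box, with both overlapping motifs in capitals, lie at chr7:28379267-28379296 (minus strand), within an exon of a longer annotated transcript.
Zfp36: ccaggCCGCCCCATAAAAGGagaaagctcc

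The Zfp36l1 promoter (chr12:80113014-80113263, minus strand) held an AP-1 motif, found in 6.75% of promoters, and a TATAAA, found in 12.4%. The Zc3h12a promoter (chr4:125127882-125128131, minus strand) held 5 GGGCGG motifs and a CCGGAA. Promoters with at least 1 match made up 32.7% and 12.0% of all for these last motifs. Capitals mark the motifs, and a match is a description of the letters only. The promoter of Rc3h1, which did not pass the test, also held an AP-1 motif and 5 GGGCGG motifs, that of Khsrp held 1 GGGCGG, and that of Elavl1 held none of the motifs searched.
Zfp36l1: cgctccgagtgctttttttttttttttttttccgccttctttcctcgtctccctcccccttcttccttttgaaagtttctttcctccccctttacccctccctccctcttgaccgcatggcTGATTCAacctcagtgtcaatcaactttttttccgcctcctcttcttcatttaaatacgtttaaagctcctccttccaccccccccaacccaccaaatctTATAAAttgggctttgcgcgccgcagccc
Zc3h12a: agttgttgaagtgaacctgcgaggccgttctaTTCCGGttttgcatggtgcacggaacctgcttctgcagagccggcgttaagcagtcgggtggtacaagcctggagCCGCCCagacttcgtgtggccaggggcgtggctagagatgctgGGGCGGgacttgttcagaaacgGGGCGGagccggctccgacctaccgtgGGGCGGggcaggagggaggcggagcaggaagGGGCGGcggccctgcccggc

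The rows nearest in pattern to the most changed regulators were found by Euclidean distance of centred log2 values over the 4 libraries, among 8543 other rows. Nearest to Zc3h12a were Arid5a, an RNA-binding protein that stabilises Il6 mRNA (4.29 and 4.53 FPKM in Irx5KO, 33.9 and 38.4 FPKM in WT, distance 0.159), the endoplasmic reticulum chaperone gene Hspa5, the transcription factor gene Maff, the kinase gene Ripk3 and Wdr92. Nearest to Zfp36 were Lce1m, a late cornified envelope gene (108 and 226 FPKM in Irx5KO, 697 and 548 FPKM in WT, distance 0.108), Grasp, Lce1e, the matrix signalling gene Cyr61 and the metallothionein gene Mt2. These rows were selected for their likeness over the same 4 libraries, so the order of libraries they share with Zc3h12a or Zfp36 follows from the selection.

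Other genes of the decay machinery were counted by list. For comparison, 26.9% of all rows rose and 9.22% fell. Of 21 tested genes of other CCR4-NOT subunits and deadenylase factors, 7 rose (33.3%), 4 fell (19.0%) and 10 did not pass. The median was 0.30 beside 0.26 over all rows. The 4 that fell were Ccrn4l, for nocturnin (2.12 and 3.43 FPKM in Irx5KO, 23.8 and 47.2 FPKM in WT, adjusted p = 1.73e-04), and the antiproliferative adaptors Tob2 (11.3 and 15.6 FPKM in Irx5KO, 34.3 and 46.6 FPKM in WT, adjusted p = 0.00144), Btg2 (76.6 and 195 FPKM in Irx5KO, 689 and 684 FPKM in WT, adjusted p = 0.00190) and Tob1. Proteins of the Tob and Btg family bind the deadenylase subunits Cnot7 and Cnot8.

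Of those that rose, Cnot6l, a catalytic subunit, had the smallest p (20.8 and 18.4 FPKM in Irx5KO, 8.77 and 10.3 FPKM in WT, log2 change 0.96, adjusted p = 0.00391). The others were Cnot3, Cnot6, Cnot8, Rqcd1, Cnot11 and Pan3, which like Tob1 are named after their values were seen. The number that rose was 1 with the median of ratios and without Irx5KO replicate 1, 2 without Irx5KO replicate 2 and 3 with quantile normalization. The number that fell was 4 under each scaling and 3 without Irx5KO replicate 1.

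Of 20 other proteins that bind AU-rich or GU-rich elements, 2 rose, 2 fell and 16 did not pass (median 0.16). Igf2bp2, which binds and stabilises mRNAs, fell (0.323 and 0.308 FPKM in Irx5KO, 3.72 and 5.78 FPKM in WT, adjusted p = 1.83e-04), as did Hnrnpab (adjusted p = 0.0245). Tia1, of stress granules, rose (12.3 and 9.58 FPKM in Irx5KO, 6.10 and 5.11 FPKM in WT, adjusted p = 0.00932), as did Fubp3, a relative of Khsrp (adjusted p = 0.0138). The number that rose was 0 with quantile normalization and without Irx5KO replicate 1, and 6 in TPM. The number that fell was 1 without WT replicate 2, without either Irx5KO library in turn and with quantile normalization.

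Of 4 tested relatives of roquin and regnase, N4bp1 fell (9.34 and 10.1 FPKM in Irx5KO, 14.1 and 18.4 FPKM in WT, adjusted p = 0.0209), Khnyn rose (adjusted p = 0.0402), and Rc3h2 and Zc3h12c did not pass. Both calls ended with either Irx5KO library left out, that of N4bp1 also in TPM and that of Khnyn without WT replicate 1, with the median of ratios and with quantile normalization.

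The lists of bulk mRNA decay had medians of 0.11 to 0.34, beside 0.26 over all rows, with single genes past the threshold. The share that rose was in each list below the 26.9% of all rows. Of 20 decapping and 5′ decay genes, 4 rose (20.0%) and none fell (median 0.34), namely Dcp2, Lsm14b, Dcp1a and Ddx6 at 0.52 to 0.63. With the median of ratios, with quantile normalization and without Irx5KO replicate 1 none of them rose, and 10 did in TPM. Of 19 exosome and Ski complex genes, Exosc4 (log2 change 1.06, adjusted p = 0.00552) and Exosc5 rose and none fell (median 0.21), with 9 higher in TPM and 6 without WT replicate 1. Of 16 genes of nonsense-mediated decay, Upf2 and Casc3 rose (12.5%) and Magoh fell (median 0.11). None rose with the median of ratios or with quantile normalization. With the median of ratios 4 of these genes fell.

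Of 31 tested signalling genes whose products act on these regulators, 8 fell (25.8%), 4 rose (12.9%) and 19 did not pass (median -0.02). The p38 pathway phosphorylates tristetraprolin through the kinase MK2, which favours stable AU-rich mRNAs. The MK2 gene Mapkapk2 fell (31.5 and 37.5 FPKM in Irx5KO, 65.6 and 86.0 FPKM in WT, adjusted p = 0.00394), as did the upstream kinase gene Map2k3 (24.1 and 29.6 FPKM in Irx5KO, 86.8 and 134 FPKM in WT, adjusted p = 5.83e-04). The p38 genes Mapk14, Mapk11 and Mapk13 did not pass (log2 changes 0.45, 0.48 and -0.12), nor did Map2k6 (-0.10), all named after their values were seen. Sfn, the epidermal 14-3-3 protein, fell (522 and 773 FPKM in Irx5KO, 3979 and 4464 FPKM in WT, adjusted p = 4.92e-04). Bcl10, which with the protease Malt1 forms the complex that cleaves regnase-1 and roquin, fell as well (31.4 and 38.2 FPKM in Irx5KO, 72.5 and 109 FPKM in WT, adjusted p = 0.00313). Mapkapk3, for a kinase related to MK2, rose (103 and 115 FPKM in Irx5KO, 75.3 and 65.9 FPKM in WT, adjusted p = 0.0308), as did Card14, an adaptor of the Bcl10 and Malt1 complex in keratinocytes (adjusted p = 0.0169), Ikbkb (adjusted p = 0.0342) and Chek2 (adjusted p = 0.0444). These 4 are named after their values were seen. So is Malt1, which fell (9.34 and 7.56 FPKM in Irx5KO, 15.1 and 18.5 FPKM in WT, adjusted p = 0.00672). The number that fell was 4 without Irx5KO replicate 2, and came to 5 in TPM and when Irx5KO replicate 1 or WT replicate 2 was left out. The number that rose was 0 with the median of ratios and with either Irx5KO library left out, 1 without WT replicate 2 and 8 in TPM.

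**Figure D4:**
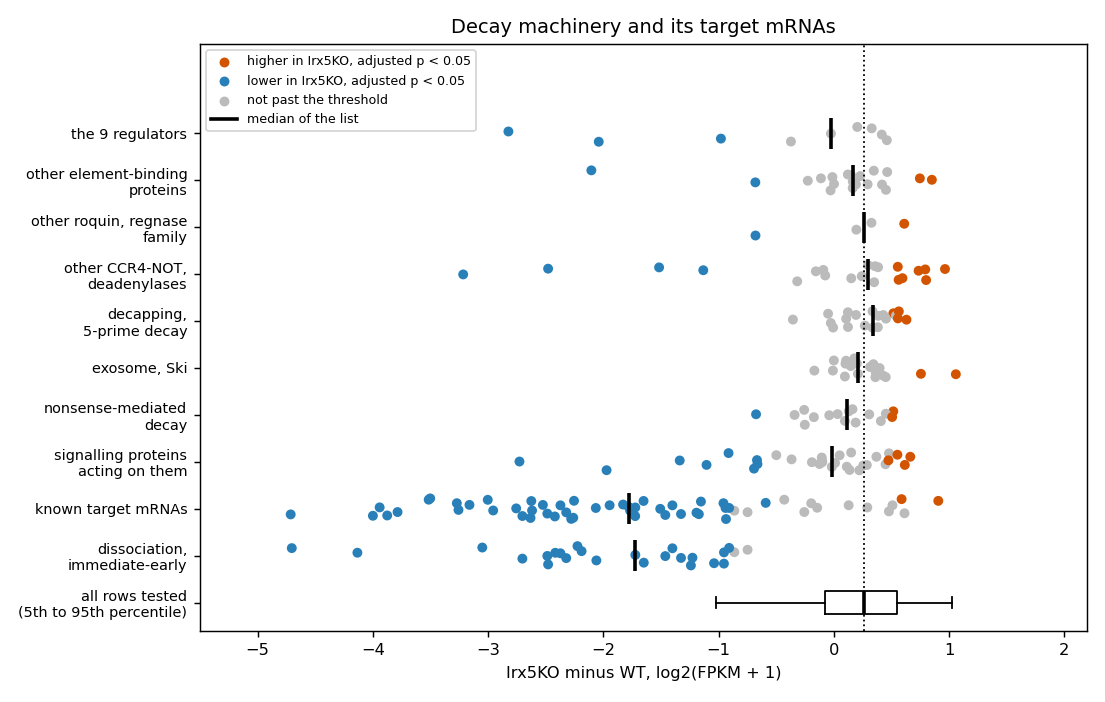
Change of each tested gene (Irx5KO minus WT, log2(FPKM + 1)) in the 9 regulators, 9 further lists and all 11643 rows, with genes that rose in orange, that fell in blue, the rest in grey, and a bar at each list's median. The dotted line is the median of all rows, and the box spans the quartiles with whiskers at the 5th and 95th percentile. The medians of the decay machinery lists lie near the dotted line, and those of the known target mRNAs and the dissociation list lie to its left, at -1.77 and -1.72.

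Most mRNAs on a list of known targets of AU-rich element decay or of regnase and roquin fell in Irx5KO. Of 58 tested, 45 fell, 2 rose (Csf1 and Bcl6) and 11 did not pass, with a median of -1.77. These are 77.6% lower calls, against 9.22% of all rows. The list was chosen with earlier results of these data known, and it is not independent evidence of that direction. The decreases numbered 36 to 48 under every alternative except no filter on low values, where none passed.

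The targets of smallest p included secreted factors of inflammation and growth. The chemokine gene Cxcl1 was at 0.399 and 0.540 FPKM in Irx5KO and at 34.0 and 41.4 FPKM in WT (log2 change -4.71, adjusted p = 1.75e-06). The epidermal growth factor receptor ligand Areg was at 4.50 and 5.41 FPKM in Irx5KO and at 91.1 and 81.5 FPKM in WT (-3.88, adjusted p = 3.61e-06). Il6, a cytokine mRNA bound by regnase-1, was listed at 0 in both Irx5KO libraries and at 9.56 and 11.2 FPKM in WT. Ereg, another ligand of that receptor, was at 2.17 and 3.36 FPKM in Irx5KO and at 30.8 and 39.5 FPKM in WT. The genotypes did not overlap for any of them, but they were chosen by smallest p in these same libraries, which favours such separation. Over all rows, Irx5KO lay below WT without overlap for 18.0%.

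The NF-kB feedback gene Tnfaip3 was at 8.10 and 10.4 FPKM in Irx5KO and at 129 and 150 FPKM in WT (-3.79, adjusted p = 6.43e-06). Bcl3, another NF-kB regulator, was at 0.983 and 1.06 FPKM in Irx5KO and at 27.5 and 32.9 FPKM in WT. The cyclooxygenase gene Ptgs2 was at 0.210 and 0.168 FPKM in Irx5KO and at 6.20 and 6.54 FPKM in WT. These 3 genes, also chosen by smallest p, were each lower in both Irx5KO libraries than in both WT libraries. Tnf, the classic mRNA regulated by tristetraprolin, did not share this direction (4.57 and 12.0 FPKM in Irx5KO, 4.42 and 4.69 FPKM in WT, log2 change 0.61, adjusted p = 0.175) although its 3′ UTR held 5 nonamers, nor did Fos pass (552 and 1089 FPKM in Irx5KO, 1645 and 1211 FPKM in WT, adjusted p = 0.0891). Both are named after their values were seen.

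Among the targets of smallest p, the first nonamer sites of 4 are given to set beside those of the regulators, at chr5:90892615-90892644 (Cxcl1), chr5:91148382-91148411 (Areg), chr1:150105790-150105819 (Ptgs2) and chr5:91093576-91093605 (Ereg), in mm10.
Cxcl1: atttatgtatTTATTTATTccacaaagtgt
Areg: tatttaagtgTTATTTATTttatagctcat
Ptgs2: ctgaccatatTTATTTATTtatgtgaagaa
Ereg: ttgtcagtttTTATTTATTttttgttagga

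The nonamer was set beside the changes, as a description with no test. Of the 58 targets, the 20 with a nonamer had a median change of -1.92 and 16 fell, and the 38 without had a median of -1.75 and 29 fell. Among all tested symbols with a 3′ UTR, the median change was 0.26 for the 10259 genes without a nonamer, 0.27 for the 700 genes with 1, 0.24 for the 125 with 2 and 0.19 for the 71 with 3 or more. The share that fell was 8.72%, 13.0%, 10.4% and 11.3% in that order, and the share that rose 26.9%, 28.1%, 26.4% and 28.2%. With the median of ratios the share that fell was 13.6%, 16.1%, 12.8% and 15.5%. With quantile normalization it was 10.7%, 15.1%, 11.2% and 12.7%. For 0, 1, 2 and 3 or more matches of the shorter motif TATTTAT it was 8.64%, 8.86%, 11.6% and 12.2% as deposited. With the known targets left out, 11.0% of 876 genes with a nonamer fell, against 8.47% of 10221 without.

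These classes also differed in length and level, with a median 3′ UTR of 1060 bases without a nonamer and of 2145 bases with 1. In 3′ UTRs of 500 to 2000 bases the share that fell was 9.48% of 4757 genes without, 16.7% of 275 with 1, 15.2% of 46 with 2 and 21.7% of 23 with 3 or more. The medians in those classes were 0.28, 0.26, 0.16 and 0.13. The known targets and the regulators, chosen with earlier results of these data known, were kept in these length-limited classes. Cxcl2 and Pim1, known targets that fell, are among the 23 genes with 3 or more. The shares without such genes were not computed.

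**Figure D5:**
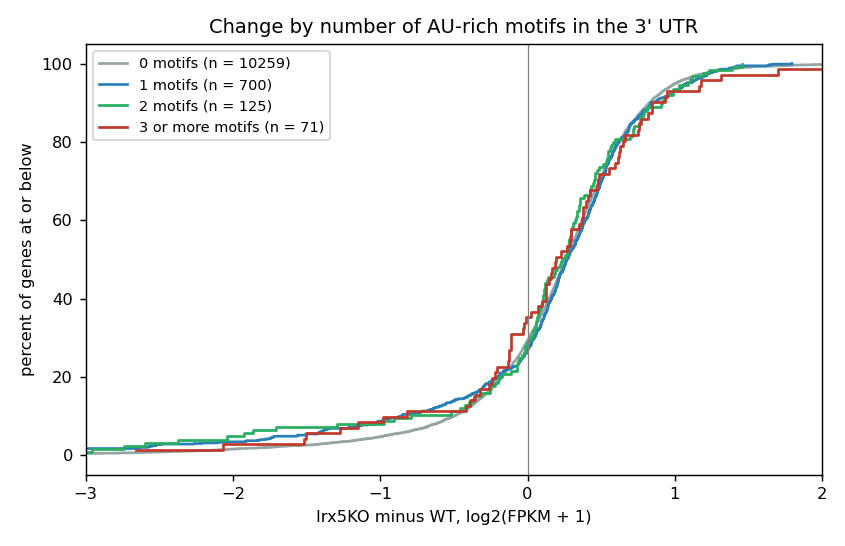
Cumulative percent of genes at or below each change (Irx5KO minus WT, log2(FPKM + 1)), by the number of TTATTTATT matches in the longest 3′ UTR. The curves cross the middle close together (medians 0.19 to 0.27) and part in the lower tail, where genes with a nonamer reach further down. The known targets and the regulators are included.

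Zfp36 is also known as an immediate-early gene, a class that tissue dissociation can induce. A separate list of dissociation and immediate-early genes, which does not hold Zfp36, was lower in the same libraries. Of its 25 genes, 23 fell (92.0%), none rose, and Fos and Jun did not pass (median -1.72). Over all rows, 9.22% fell and 26.9% rose. This list too was chosen with earlier results of these data known. The summed level of the 25 genes was 3804 and 6625 FPKM in Irx5KO libraries and 16850 and 15525 FPKM in WT libraries. All 25 were lower in Irx5KO replicate 1 than in replicate 2, against 52.1% of all rows tested. The same held for 6 of the 9 regulators (66.7%). These were Zfp36, Zfp36l1 and Zc3h12a, which fell, and Zfp36l2, Rc3h1 and Cnot7, which did not pass. Without Irx5KO replicate 1, 15 of the 25 fell. Of the known targets, 11 tested genes are also on this list. Of the other 47, 36 fell and 2 rose (median -1.83), a split made after the values were seen. The part of the dissociation response in the changes of the regulators was not tested.

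Cell type markers were counted by list, beside 9.22% of all rows that fell and 26.9% that rose (median 0.26). Markers of Langerhans cells and macrophages also moved. Of 12 tested, 6 fell and none rose (median -1.23), among them Cd207, for langerin (10.4 and 15.1 FPKM in Irx5KO, 107 and 96.8 FPKM in WT, adjusted p = 3.81e-05). The 13 markers in the table summed to 390 and 536 FPKM in Irx5KO and to 1404 and 834 FPKM in WT. That sum includes Epcam, which is also on the keratinocyte list. It also includes H2-Eb1, at 0.793 and 26.1 FPKM in Irx5KO and at 149 and 4.82 FPKM in WT. Ptprc and Csf1r did not pass (log2 changes 0.05 and 0.20). Of 9 T cell markers, Il2rb and Cd2 fell and 7, among them Cd3e, Cd3g and Cd3d, did not pass (median 0.10). That list summed to 111 and 129 FPKM in Irx5KO and to 188 and 80.9 FPKM in WT. Fibroblast markers summed to under 10 FPKM and endothelial markers to under 4 FPKM in every library, with all 10 endothelial markers under the filter, and no fibroblast marker passed the test. The 9 neutrophil markers summed to 33.4 and 63.2 FPKM in Irx5KO and to 16.5 and 18.1 FPKM in WT, most of it from S100a9. Of the 2 tested, S100a9, which keratinocytes can also express, rose (31.2 and 59.0 FPKM in Irx5KO, 14.9 and 15.2 FPKM in WT, adjusted p = 0.00440), while Elane, Retnlg and Ngp were listed at 0 in every library. Of 4 tested melanocyte markers Dct fell, and the list summed to 11.5 to 13.6 FPKM in Irx5KO and to 13.7 to 31.3 FPKM in WT. In bulk RNA, fewer cells of a type and less RNA per cell cannot be told apart, and the part of these cells in the results was not tested.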

How the data were processed

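Bulk RNA-seq of 4 epidermis libraries was analysed from a table of FPKM deposited by the authors, with a column per library. The tools Bowtie2 and DESeq2 and the genome build mm10 stand in the submitters' processing notes, without their role. How reads were counted, on which annotation and whether by strand is not given in the sources used here. Single-end reads were sequenced, and 2 library kits (SMARTER and Illumina) are named, per the labels' protocols.

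The 11643 of 23847 rows that reached 1 FPKM in 2 or more libraries were tested with limma 3.58.1 in R 4.3.3 on log2(FPKM + 1), with an intensity trend, 2-sided, adjusted by Benjamini-Hochberg over all rows at 0.05. The test was checked on simulated data. Those had far fewer changed rows than were called here, in both directions alike, and no difference in library scaling. The check therefore does not cover a shift of many rows. Where a symbol stood on several rows, lists used the row of highest mean. Symbols were matched to GENCODE M21 (98.3% of rows), which gave 3′ UTRs for 11155 of 11601 tested symbols. Named genes are the 9 regulators, up to 4 of smallest p per list (8 for known targets), the 5 rows nearest to the 2 most changed regulators, and Irx5, Xist and Eif2s3y. Exceptions are said to be such, and some items the rule names are not reported here. The regulators and lists were chosen with earlier results of these data known. Alternatives covered the pseudocount, filter, scaling, prior variance, replicate block and each library left out.

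Depth was estimated from steps of low FPKM values in genes with a single transcript, with an assumed fragment of 200 bases. Between 69.1% and 71.1% of those values came out whole at a tolerance of 0.1 fragments, where 20.0% would by chance, so the depth is approximate. For a 2000-base transcript, 1 FPKM then equals 94.0 to 108 fragments. The fewest estimated fragments of any regulator were about 1327, for Zc3h12a in Irx5KO replicate 1, a counting error of 2.75%. With 2 libraries per genotype and no word on litters or days, the p-values speak only of the spread among these libraries, which may be technical in part.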

Additional observations from a re-analysis of the deposited data

How the results depend on the processing

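The count of regulators that fell stayed at 3 in all alternatives except 4 without WT replicate 1, 2 without Irx5KO replicate 1 and 0 with no filter on low values, where adjusted p = 0.163 for Zfp36, 0.107 for Zfp36l1 and 0.0654 for Zc3h12a and the cause was not tested. With no filter, 28 rows rose and 18 fell over the whole table. The count of regulators that rose, 0 as deposited, came to 4 in TPM, 2 without the 100 most abundant rows and 1 with quantile normalization, and to 0 to 2 with a library left out. Over all rows, 3127 rose and 1073 fell as deposited, with 1457 to 4048 and 725 to 1275 with a library left out. The numbers that rose were 5577 in TPM, 4796 without the 100 most abundant rows, 1898 at a mean of at least 5 FPKM, 1517 with quantile normalization (1309 fell) and 1250 with the median of ratios (1626 fell). Sign changes were limited to regulators that did not pass: Zfp36l2 with the median of ratios (-0.10) and Elavl1 in TPM (0.21), without the 100 most abundant rows (0.12) and without WT replicate 2. With a library left out, the Elavl1 change ranged from -0.054 to 0.0032. With the replicate number as a block, 3 regulators fell and none rose, with 3301 rows higher and 1166 lower. None of the nonsense-mediated decay genes rose in that fit, against 2 without the block. The numbers do not pair the samples by any label, and the differences between replicates 1 and 2 correlated at -0.0674 between genotypes across rows. With 2 libraries per genotype, single libraries decide several of these calls, and the lone library left in a genotype is assumed to vary like the others.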
